A study of Bubalus bubalis with 12 samples.

Results

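The ATP-binding cassette (ABC) transporter family was examined in the ruminal wall of Italian Mediterranean dairy buffaloes. Members were the rows of the deposited expression table whose symbol begins with ABC, a subfamily letter from A to G and a number, which gave 41 genes. LOC112578513, LOC102413340 and LOC102399222, annotated in the study as similar to ABCC4, were added by name, so that the family held 44 of the 34037 genes of the table. The control group (n = 6) was fed a total mixed ration (TMR), and the treated group (n = 6) was fed TMR in which green ryegrass made up about 30% of the diet. All animals were adult multiparous cows already due for slaughter, allotted at random to the groups, and each gave 1 library of stranded total RNA from frozen ruminal wall. The values are FPKM, that is, fragments scaled by gene length and by the fragments counted in that animal.

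ABC proteins share a domain that binds and splits ATP, and most of them use it to move a substrate across a membrane. Subfamilies A and G mainly handle sterols and other lipids, B and C handle peptides, metals, drugs and conjugated organic anions, and D handles fatty acids and vitamin B12. The E and F proteins have no membrane part and work at the ribosome. The rumen is lined by a stratified squamous epithelium that takes up fermentation products, and beneath it lie connective tissue, vessels and smooth muscle.

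The fragments counted per animal ranged from 10531541 to 12948372, and the median was 12414349 among controls and 12031597.5 among treated animals. Markers of squamous epithelium were abundant, with a summed FPKM of 7 genes of 2380 to 4650 in controls and 2640 to 5200 in treated animals; KRT14 was not analysed here. Markers of smooth muscle (7 genes) summed to 27.5 to 47.6 FPKM in controls and 15.1 to 38.6 in treated animals. All 6 fibroblast, 7 endothelial and 4 T cell markers were also above the floor of 3 reads, whereas CD79B and MS4A1 of B cells, and ELAVL4 and SOX10 of enteric glia and neurons, were not. Replicate 6 of the control group and replicate 6 of the treated group stood apart from the other animals, with the lowest squamous epithelium sums (2381 and 2642 FPKM, against 3404 to 5201 in the other 10). The main results that rest on these libraries are therefore given with and without them. Their part in the results below was not tested.

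Levels across the family spanned from 90.1 FPKM to 0. Of the 44 genes, 3 had a mean above 50 FPKM over the 12 animals, 5 lay between 10 and 50, 10 between 1 and 10, and 26 were at or below 1. The summed FPKM of the family was 341 ± 20.0 (SD, n = 6) for controls and 339 ± 16.6 (SD, n = 6) for treated animals. ABCC3, ABCD3 and ABCE1 together held from 65.4% to 70.0% of that sum in each animal.

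**Figure D1:**
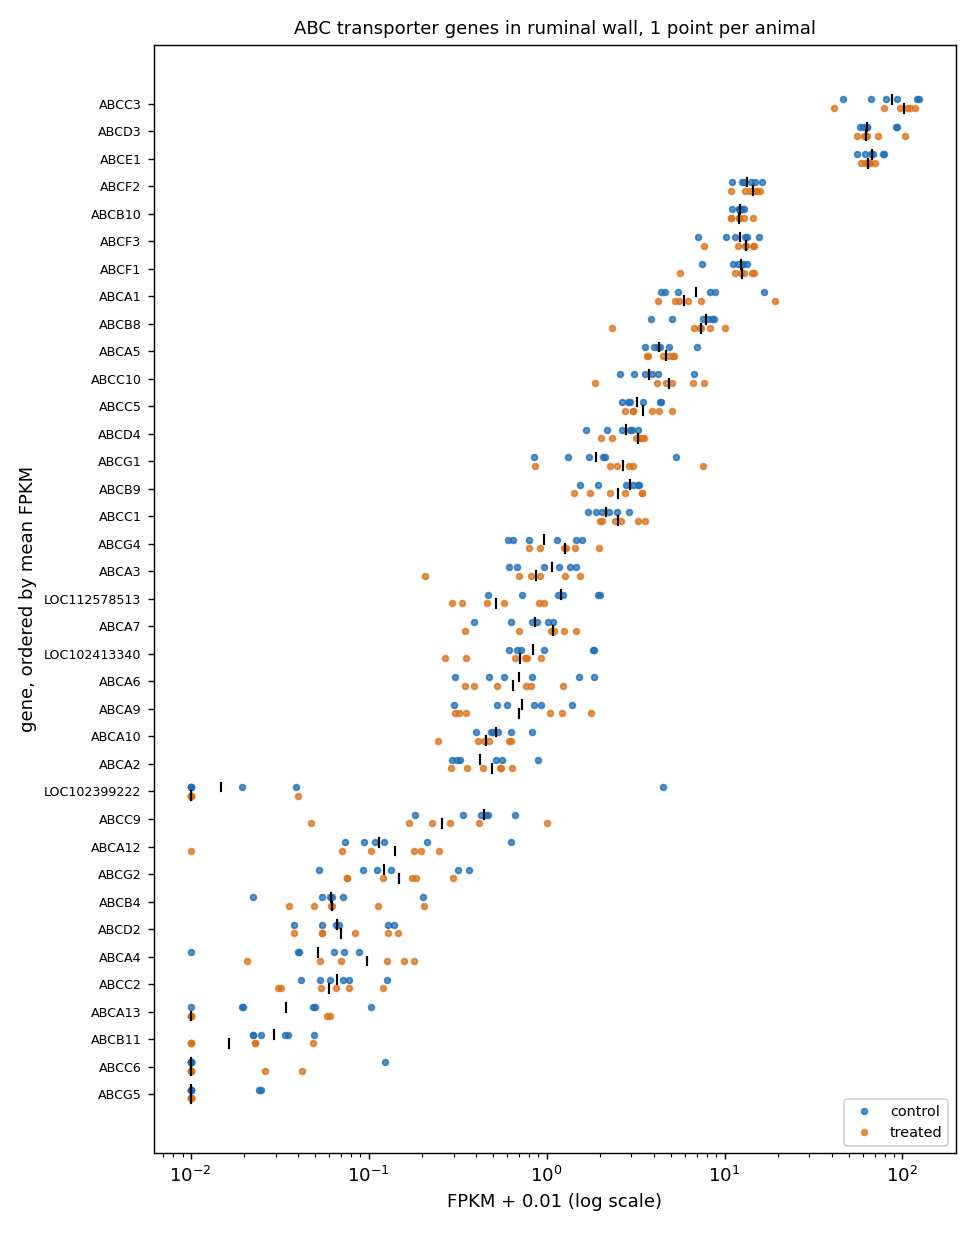
FPKM (with 0.01 added, log scale) of ABC genes with reads in at least 1 animal, ordered by mean; each point is 1 animal, blue for control and orange for treated, and the black ticks are group medians. The control and treated points overlap for each gene, and ABCC3, ABCD3 and ABCE1 stand clear of the genes below them.

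ABCC3 (NCBI gene 102409447), an exporter of glucuronide conjugates and bile acids at the basolateral membrane of epithelia, had the highest mean of the family at 90.1 FPKM, above 94.9% of the 12639 genes tested. Its FPKM was 46.6 at the lowest, 86.9 at the median and 124 at the highest in the control group. In the treated group it was 41.0, 102 and 117, so that the groups overlapped, with replicate 6 lowest in both. ABCD3 (102415239), which brings long-chain and branched acyl-CoA into peroxisomes, had FPKM of 58.1, 63.5 and 92.8 (lowest, median, highest) in controls and 55.6, 62.5 and 103 in treated animals. Here replicate 6 was the highest of each group. ABCE1 (102416242), the ribosome recycling factor, had FPKM of 55.8, 67.5 and 79.2 in controls and 58.6, 64.4 and 70.1 in treated animals, a spread of 10.6% of the mean over all animals.

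The order of these levels was not fixed from animal to animal. ABCC3 exceeded ABCD3 in 10 of 12 animals, and ABCD3 exceeded ABCE1 in 6 of 12.

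The genes between 10 and 50 FPKM included mitochondrial ABCB and soluble ABCF members. ABCB10 (102412080), a mitochondrial protein of haem-forming cells, had FPKM of 11.0, 12.2 and 12.8 in controls and 10.8, 12.1 and 14.4 in treated animals, the smallest relative spread of the family among genes with reads in all animals (8.25% of its mean). It thus varied little between animals and groups.

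ABCF2 (102413365) had FPKM of 11.0, 13.5 and 16.3 in controls and 10.9, 14.5 and 15.8 in treated animals. ABCF3 (102401288) had 7.06, 12.3 and 15.6 in controls and 7.69, 13.1 and 14.6 in treated animals. ABCF1 (102408723), which takes part in translation initiation through eIF2, had 7.46, 12.3 and 13.4 in controls and 5.63, 12.6 and 14.6 in treated animals. Replicate 6 was lowest in both groups for ABCF3 and ABCF1, and the groups overlapped for all 3.

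Between 1 and 10 FPKM lay the lipid exporters ABCA1, ABCA5, ABCG1 and ABCG4, the mitochondrial ABCB8, the lysosomal ABCB9 and ABCD4, and the organic anion exporters ABCC10, ABCC5 and ABCC1. ABCA1, which loads cholesterol and phospholipid onto apolipoprotein A-I, had FPKM of 4.37, 6.89 and 16.7 in controls and 4.23, 5.90 and 19.1 in treated animals. ABCG1, which passes sterol on to lipoprotein particles, had 0.840, 1.90 and 5.30 in controls and 0.854, 2.67 and 7.58 in treated animals. For both, the highest value of each group was that of replicate 6.

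The other genes of this range overlapped between the diets as well. ABCC10, an exporter of glucuronides and drugs, had FPKM of 2.59, 3.74 and 6.71 in controls and 1.85, 4.88 and 7.65 in treated animals, and replicate 6 was lowest in both. ABCC5, which exports cyclic nucleotides, had 2.66, 3.21 and 4.41 FPKM against 2.75, 3.47 and 5.09 (control, then treated). ABCD4, needed for the release of vitamin B12 from lysosomes, had 1.66, 2.79 and 3.27 FPKM against 2.00, 3.26 and 3.52. The treated median was the higher for these 3 genes, by less than the range within either group. ABCB9, a peptide transporter of lysosomes, had 1.54, 2.91 and 3.29 FPKM against 1.41, 2.49 and 3.44, with the lower median in treated animals. ABCA5 had 3.56, 4.29 and 7.02 FPKM against 3.68, 4.67 and 5.16, and ABCG4, a sterol exporter best known from brain, had 0.601, 0.962 and 1.57 against 0.782, 1.25 and 1.95.

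Below 1 FPKM, the reads behind a value differed between genes, from 16 to 118 per animal in ABCA3 to at most 9 in ABCD2. ABCA3, the surfactant lipid transporter of lung, had FPKM of 0.605, 1.07 and 1.46 in controls and 0.197, 0.858 and 1.54 in treated animals, and treated replicate 6 was the lowest of all. ABCA7 had 0.381, 0.846 and 1.07 FPKM against 0.338, 1.07 and 1.45, with replicate 6 lowest in both groups. ABCD2, a peroxisomal relative of ABCD3, had a mean of 0.0732 FPKM, against 70.6 FPKM for ABCD3. ABCA4, the retinal lipid transporter, had 0, 0.0420 and 0.0787 FPKM in controls and 0.0106, 0.0886 and 0.169 in treated animals, from at most 16 reads, and the groups overlapped.

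The lowly expressed members included several known for roles in other organs. ABCA3, ABCA12, ABCA4 and ABCA13, which handle lipids in lung, skin and retina or are little described, summed to a mean of 1.22 FPKM. ABCG2, ABCB4, ABCB11 and ABCB5, drug and bile exporters of the plasma membrane, summed to 0.246 FPKM. ABCG2, the breast cancer resistance protein, had FPKM of 0.0427, 0.113 and 0.355 in controls and 0.0653, 0.137 and 0.287 in treated animals, from at most 17 reads in an animal. At that depth the groups could not be told apart.

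In 5 genes, ABCB5, ABCC8, ABCC11, ABCC12 and ABCG8, no animal had a read, which allows at most 3 reads, or from 0.232 to 0.285 CPM per library (reads scaled to the counted fragments). ABCB11, the bile salt pump of the liver, and ABCG5, the sterol exporter of gut and liver, had no more than 3 reads in any animal. These limits cover counting error only. Rows for ABCC4, ABCB1, ABCB6 and ABCA8 were not analysed here, since no symbol matched.

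Several members lie side by side. In the RefSeq gene order of another buffalo assembly (NDDB_SH_1), ABCG5 and ABCG8 were neighbours and both had a mean at or under 0.00242 FPKM. ABCC6 (0.0136 FPKM) lay next to ABCC1 (2.43 FPKM), and ABCA10 (0.507 FPKM) next to ABCA5 (4.59 FPKM). ABCA9, ABCA6 and ABCA10, which follow each other, had means of 0.791, 0.794 and 0.507 FPKM.

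The effect of green feed was tested between the groups by limma, on the scale log2(FPKM + 0.01), over genes with at least 42 depth-scaled reads in at least 1 animal. This filter was met by 26 of the 41 genes matched by symbol and by the 3 ABCC4-like loci, while 15 members were not tested. At a nominal p-value under 0.05, limma called 0 of the 26 symbol-matched genes, the exact permutation test 0 and voom on the reads 0. Limma called 156 (1.23%) of all 12639 genes, 99 (0.783%) upward and 57 (0.451%) downward under green feed, and the exact permutation test called 221 (1.75%). With Benjamini-Hochberg adjustment in limma, 0 genes (0%) were below 0.05. The groups did not overlap in FPKM for 7 genes (0.0554%), and for 0 of the ABC genes tested. With a share of 1.23%, a list of 26 genes without any call is near the background. In bulk tissue, fewer cells of a type and less RNA per cell cannot be told apart.

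Of the 26 genes, 11 had a log2 fold change above 0 and 15 below 0. Their median log2 fold change (treated minus control) was -0.02, against 0.01 over all genes tested, while the median size of the change, regardless of sign, was 0.09, against 0.10 over all genes. The smallest limma p-value was that of ABCC1, the exporter of glutathione conjugates and leukotriene C4. Its FPKM was 1.71, 2.15 and 2.91 in controls and 1.99, 2.53 and 3.58 in treated animals, with a log2 fold change of 0.25 (SE 0.20; limma p = 0.231, adjusted p = 0.9997; exact permutation p = 0.203).

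**Figure D2:**
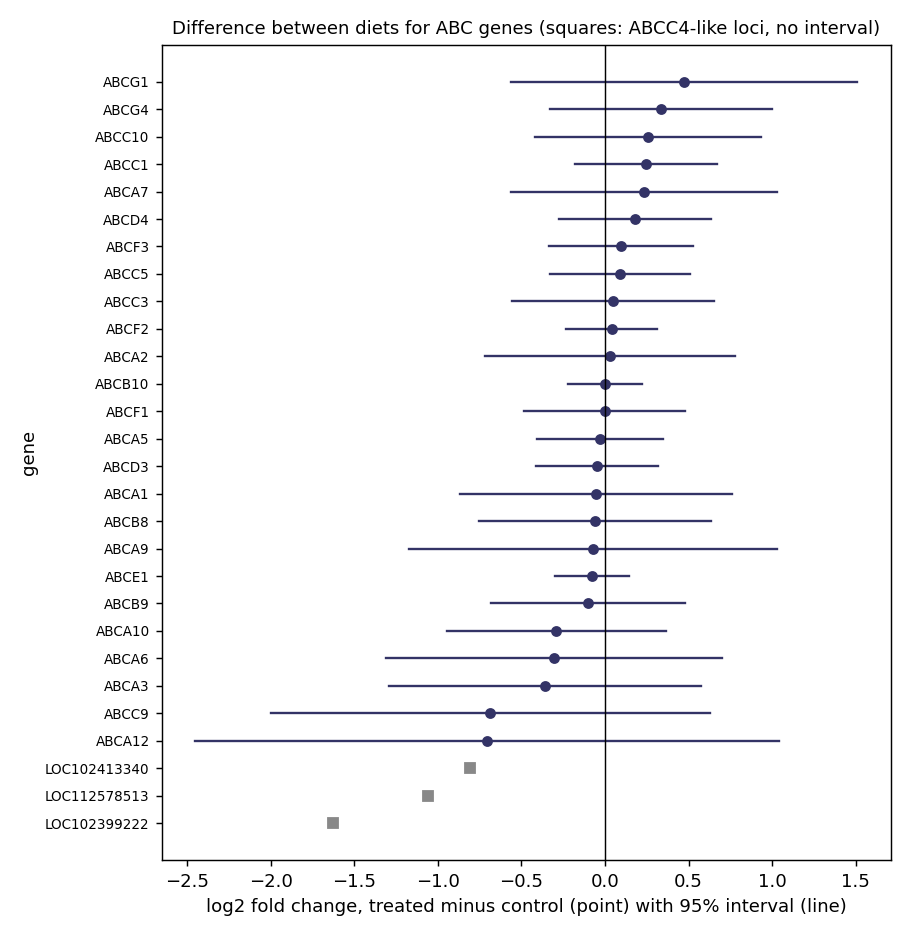
Log2 fold change (treated minus control) of ABC genes tested; circles with lines are genes matched by symbol with their 95% limma intervals, and grey squares are the 3 ABCC4-like loci, shown without an interval. Each interval drawn includes 0, and they are narrow for ABCE1, ABCB10 and ABCF2 and wide for ABCA12 and ABCC9.

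The width of the 95% interval says how large a difference the data still allow. It stayed within 1.5-fold in either direction for 9 genes, among them ABCE1, ABCD3, ABCB10, ABCF1, ABCF2, ABCF3, ABCA5 and ABCC5. For ABCE1 it ran from 0.813-fold to 1.11-fold and for ABCB10 from 0.857-fold to 1.16-fold. For ABCC3, the most abundant member, it ran from 0.681-fold to 1.57-fold, and in all 19 of the 26 genes had an interval within 2-fold.

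The largest fold changes among the symbol-matched genes belonged to lowly expressed members with wide intervals. ABCA12, which loads lipid into the lamellar granules of keratinocytes, had FPKM of 0.0635, 0.105 and 0.624 in controls and 0, 0.132 and 0.240 in treated animals. ABCA12 met the read filter only through control replicate 6 (64 reads), with at most 28 reads in a treated animal. Entry through a control animal favours a negative fold change, so the difference in ABCA12 is a description. Its log2 fold change was -0.71 (SE 0.81), although the treated median was the higher, and it was -0.0621 without treated replicate 3, which had no read, -0.29 without control replicate 6 and -0.29 with a pseudocount of 0.1. ABCC9, the sulfonylurea receptor of potassium channels in smooth muscle and vessels, had FPKM of 0.173, 0.434 and 0.656 in controls and 0.0374, 0.247 and 0.993 in treated animals, with a log2 fold change of -0.69 (SE 0.61). The treated animals held both the lowest and the highest ABCC9 value of the 12. The ABCC9 difference was -0.21 without treated replicate 1, -1.04 without both animals numbered 6 and -0.345 with the squamous epithelium score as a covariate. With the smooth muscle score as a covariate it was -0.0806. That score had a mean of 0.39 in controls and -0.39 in treated animals. It includes MYH11 and DES, which the study called lower in these same treated animals, so this covariate overlaps with the diet contrast. ABCG1 had a log2 fold change of 0.47 (SE 0.48), with an interval from 0.678-fold to 2.85-fold, and 0.17 without treated replicate 6.

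Regulators and partners of the family were examined next to it. Of 44 genes listed for these roles 37 were tested, and limma called 0 of them at a nominal p-value under 0.05 in either direction, which is near the 1.23% of all genes. Among the nuclear receptors and regulators (11 tested), PPARG, the fatty acid sensing receptor, had FPKM of 19.5, 23.0 and 30.2 in controls and 19.3, 23.0 and 30.0 in treated animals. The sterol sensing receptors NR1H2 and NR1H3, which drive ABCA1 and ABCG1, had log2 fold changes of 0.07 (SE 0.24) and 0.11 (SE 0.22). NR1I2, the xenobiotic receptor, had no read in any animal.

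Among sterol efflux partners (9 tested) the median log2 fold change was -0.16, and MYLIP, which degrades the LDL receptor, had 0.32 (SE 0.19). The ribosome partners of ABCE1 and ABCF1 (7 tested) had a median of -0.03, with ETF1, the release factor that acts before ABCE1, at 55.6, 59.7 and 74.5 FPKM in controls and 50.7, 57.2 and 74.3 in treated animals. The peroxisomal partners of ABCD3 (4 tested) had a median log2 fold change of -0.04. TAP1 and TAP2, ABC peptide transporters of antigen presentation that bear other symbols, had log2 fold changes of 0.01 (SE 0.22) and 0.19 (SE 0.30). The potassium channel subunits KCNJ8 and KCNJ11, partners of ABCC9, were below the filter.

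The 3 ABCC4-like loci were chosen because the study called them in these animals, so that their difference is a description and no test is given. Their ranges with 1 animal left out, given below, are a description too. LOC112578513 and LOC102399222 met the filter only through controls, with at most 25 and 3 reads in a treated animal. ABCC4 itself exports cyclic nucleotides, prostanoids and conjugated anions. LOC112578513 had 50, 28, 19, 12, 31 and 43 reads in control replicates 1 to 6, and 22, 7, 8, 14, 11 and 25 in treated replicates 1 to 6. Its FPKM was 0.461, 1.19 and 1.99 in controls and 0.283, 0.509 and 0.957 in treated animals, with a log2 fold change of -1.06. All control animals but replicates 3 and 4 were thus above every treated animal, and those 2 lay within the treated range.

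LOC102413340 had 140, 69, 56, 52, 45 and 116 reads in control replicates 1 to 6, and 25, 67, 19, 56, 47 and 58 in treated replicates 1 to 6. Its FPKM was 0.603, 0.832 and 1.83 in controls and 0.260, 0.701 and 0.915 in treated animals, with a log2 fold change of -0.81. Control replicates 1, 2 and 6 were thus above every treated animal, and the other 3 controls lay within the treated range. Control replicates 1 and 6 were the highest 2 of the 12 animals at both loci, while treated replicates 1 and 3 were lowest at LOC102413340 and treated replicates 2 and 3 at LOC112578513. Without both animals numbered 6, the mean FPKM was 1.10 and 0.504 (control and treated) for LOC112578513 and 0.955 and 0.587 for LOC102413340.

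LOC102399222 was read almost wholly in 1 animal. Control replicate 2 had 450 reads (4.51 FPKM), which was 98.5% of all reads of the gene, and no other animal had more than 3. Its log2 fold change of -1.63 became -0.25 without control replicate 2. The same animal held 7 of the 10 reads of ABCC6, and no other animal had over 2 there. The counting kept reads with a mapping quality of at least 30, so that reads shared with near-identical copies may be missing from the levels of the 3 loci, which was not tested.

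**Figure D3:**
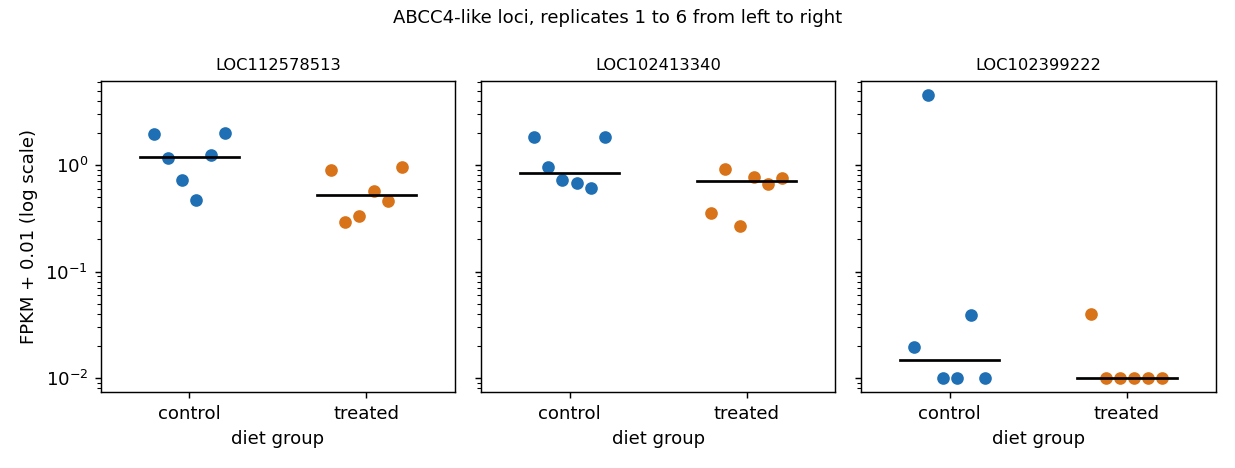
FPKM (with 0.01 added, log scale) of the 3 ABCC4-like loci in the control (blue) and treated (orange) animals, replicates 1 to 6 from left to right, with the group medians as black lines. LOC112578513 and LOC102413340 overlap between the groups, and LOC102399222 is at or near 0 in all animals but control replicate 2, which had 4.51 FPKM.

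The spread between animals was larger in the ABC genes than in the typical gene. The median within-group SD of log2(FPKM + 0.01) was 0.51 for the 26 genes, against 0.36 over all genes tested, and 9 of the 26 were under the latter. The ABC genes were also less abundant, with a median FPKM of 3.18 against 7.89, and both differences are given without a test. Control replicate 6 was the highest or lowest animal of its group in 19 of the 26 genes (73.1%, against 59.2% of all genes tested), and treated replicate 6 in 22 of 26 (84.6%, against 62.1%).

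**Figure D4:**
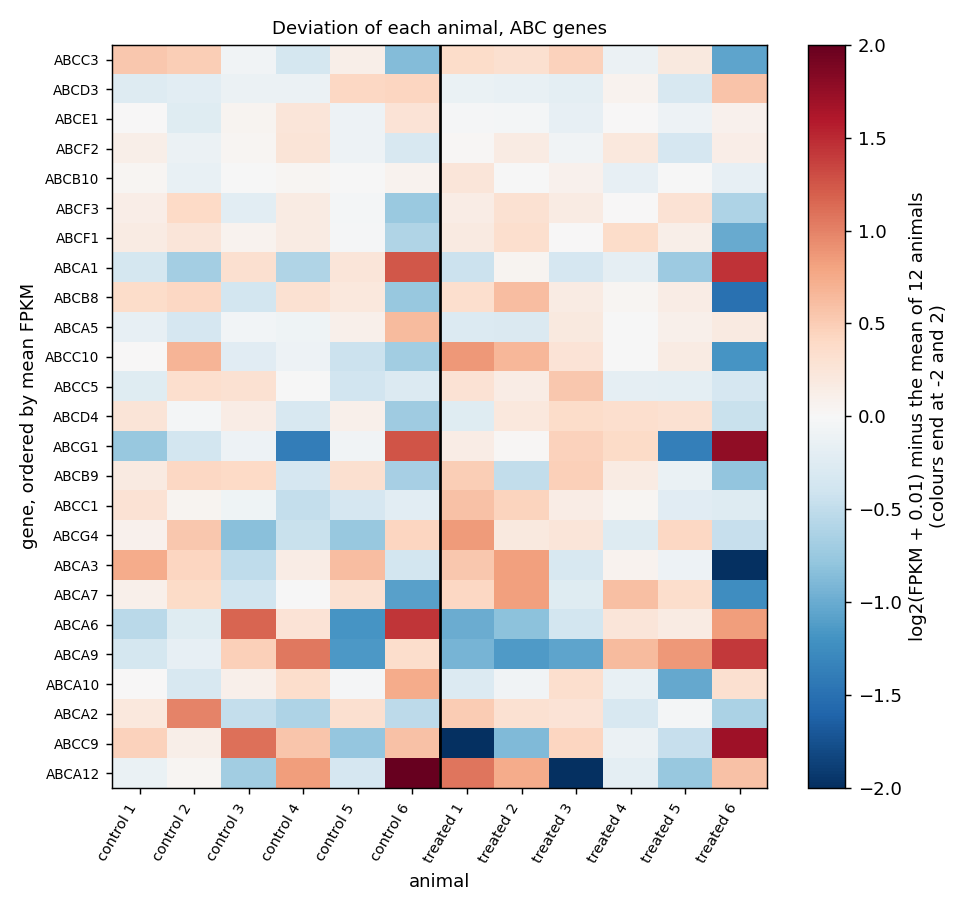
Log2(FPKM + 0.01) of ABC genes in each animal minus the mean of the gene over the 12 animals, red above and blue below it; colours end at -2 and 2, and the black line divides control (left) from treated (right). Both animals numbered 6 depart from the mean in many rows, red for ABCA1 and ABCG1 and blue for ABCC3, ABCB8 and ABCF1.

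The direction in which these animals lay apart differed between members. The highest value of each group belonged to its replicate 6 in 5 genes, ABCA1, ABCG1, ABCA6, ABCD3 and ABCE1 (19.2% of the 26, against 10.8% of all genes tested). The lowest value of each group belonged to its replicate 6 in 8 genes, ABCC3, ABCC10, ABCB8, ABCB9, ABCD4, ABCF1, ABCF3 and ABCA7 (30.8%, against 21.6%). For 11 of the 26 genes (42.3%, against 28.1% of all genes tested), both animals lay outside the range of the other 10.

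ABCA1 had 16.7 FPKM in control replicate 6 and 19.1 in treated replicate 6, against 4.23 to 8.80 in the other 10 animals. ABCG1 had 5.30 and 7.58 FPKM, against 0.840 to 3.07. Conversely, ABCC3 had 46.6 and 41.0 FPKM, against 66.5 to 124, and ABCB8 had 3.85 and 2.33, against 5.08 to 10.1. Not every lipid exporter was high in these animals, since ABCA7 had 0.381 and 0.338 FPKM in them, against 0.620 to 1.45 in the other 10. Beside the lowest squamous epithelium sums, the same animals had the highest summed FPKM of macrophage markers (22.8 and 28.4, others 10.2 to 20.0) and the lowest of pericyte markers (9.04 and 6.91, others 13.9 to 25.3). CD163 of macrophages and RGS5 of pericytes were not analysed here, so that these sums hold 6 of 7 and 3 of 4 listed genes. The mean z-score of a list weighs its genes alike. By this score, treated replicate 6 (0.502) lay below control replicate 3 (0.618) and treated replicate 5 (0.606) for macrophages. For squamous epithelium, control replicate 6 (-0.7) lay close to control replicate 3 (-0.67). The part of the tissue make-up in these values was not tested.

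**Figure D5:**
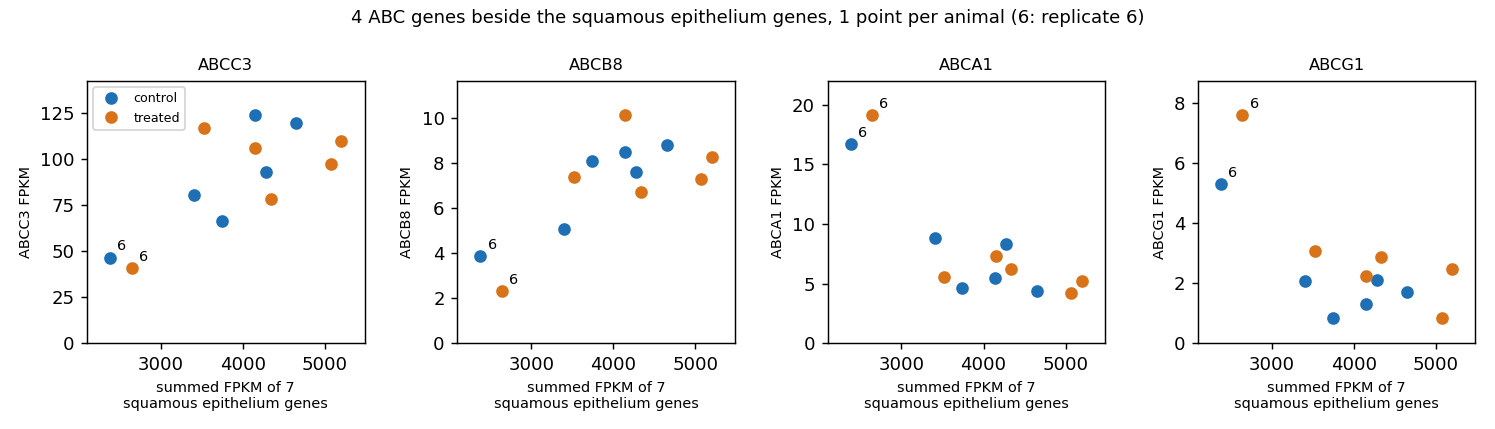
FPKM of ABCC3, ABCB8, ABCA1 and ABCG1 (vertical axes) against the summed FPKM of 7 squamous epithelium genes (horizontal axes) in 12 animals, blue for control and orange for treated; the label 6 marks replicate 6 of each group. Both labelled animals lie at the left, below the others for ABCC3 and ABCB8 and above them for ABCA1 and ABCG1.

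Without both animals the median SD fell from 0.51 to 0.34 over the 26 genes and from 0.36 to 0.27 over all genes tested. It was smaller for 25 of the 26 ABC genes, against 76.4% of all genes. Limma without them called 0 of the 26 genes at a nominal p-value under 0.05. The group means of ABCC3 were then 97.0 FPKM (control) and 102 FPKM (treated), and those of ABCA1 were 6.32 and 5.72.

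Across the 12 animals, 6 relations between a member and the mean score of a marker list were computed, and none passed after adjustment. ABCC9 had a Pearson r of 0.52 with the smooth muscle score (permutation p = 0.0809, adjusted p = 0.429) and a Spearman rho of 0.37 (permutation p = 0.236, adjusted p = 0.464). The relation rested on treated replicates 1 and 2, since r was -0.19 without them. Within groups it was 0.33 (control) and 0.48 (treated), and without both animals numbered 6 it was 0.72 (permutation p = 0.0167, adjusted p = 0.1). ABCA1 had an r of 0.45 with the macrophage score (permutation p = 0.143, adjusted p = 0.429) and a rho of 0.34 (permutation p = 0.276, adjusted p = 0.464), with r = 0.33 without the 2 animals farthest from the median score, 0.62 within the control and 0.27 within the treated group. Without both animals numbered 6, which had the highest ABCA1 values and macrophage scores of 0.89 (control) and 0.502 (treated), r was 0.0628. In the other 4 relations, ABCG1 with macrophages, ABCG2 with endothelium, ABCA12 with squamous epithelium and ABCC9 with pericytes, r lay between -0.305 and 0.336 with adjusted permutation p-values from 0.479 to 0.846, and rho between -0.392 and 0.322 with adjusted permutation p-values from 0.464 to 0.974.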

How the data were processed

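Ruminal wall of 12 animals was sequenced as stranded total RNA, 1 library per animal. The authors trimmed the reads (Trimmomatic 0.39), aligned them to UOA_WB_1 (STAR 2.5.2b) and counted them by gene and strand (featureCounts 2.0.0, mapping quality of at least 30), and deposited FPKM values. Of the table's columns, 4 matched no sample and were not used. Within a gene the FPKM were whole multiples of the value of 1 read (largest departure 5.38e-10), which gave the reads for 22971 of 22972 genes above 0; these set the filter, the floor and voom. Depth limits the precision of genes with few reads, and counts of reads are not independent molecules.

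Groups and replicate numbers were taken from the labels, which name no batch. The headers of the table number control replicate 6 and all treated animals in another way, and the labels' numbers are used throughout. Genes were tested with limma 3.58.1 in R 4.3.3 (lmFit, eBayes with trend) on log2(FPKM + 0.01), for 12639 genes with at least 42 depth-scaled reads in at least 1 animal, with Benjamini-Hochberg adjustment. Single genes were tested two-sided with the exact permutation test over 924 assignments (smallest possible p = 0.00216), and correlations with 100000 permutations (two-sided). Methods were tested on simulated data. Tools were Python 3.11.15, numpy 2.4.6, pandas 2.3.3, scipy 1.17.1 and matplotlib 3.10.9.

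The members, marker and partner lists were chosen with earlier results of these data known. Values are named for the 3 loci, the 8 most abundant members, the 5 with the largest fold change, those in correlations and the partner lists; other members were named after their values were seen, and a few genes are not reported here. Alternatives were pseudocounts of 0.1 and 1, all genes above 0, at least 0.1 FPKM in at least 6 animals, median-ratio scaling, voom, the replicate number as a block, smooth muscle or macrophage score as covariate, and each animal left out. Leaving out both animals numbered 6 and the squamous epithelium covariate were added after seeing the data. Gene names and order came from RefSeq (NDDB_SH_1), in which 42 of 44 members were found by gene identifier; no coordinates were used.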

Additional observations from a re-analysis of the deposited data

Results flagged for a closer look

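In each group of 6 animals, the highest or lowest value was compared with its nearest neighbour relative to the range of the group (Dixon's criterion at 95%). Of 60 groups tested (30 members in both diets), 11 had such a value (18.3%), against 11.2% of the groups over all genes tested. The criterion gives about 1 in 20 for normally distributed values, and whether FPKM meet that was not tested. ABCA12 and LOC102399222 met the read filter only through control replicates 6 and 2. Their flags in these animals were thus favoured by the filter, and the shares are a description. Control replicate 6 stood apart in ABCA1 (16.7 FPKM, others 4.37 to 8.80), ABCG1 (5.30, others 0.840 to 2.12), ABCA5 (7.02, others 3.56 to 4.86), ABCA12 (0.624, others 0.0635 to 0.202) and ABCF1 (7.46, others 11.2 to 13.4). Treated replicate 6 stood apart in ABCA1 (19.1 FPKM, others 4.23 to 7.34), ABCG1 (7.58, others 0.854 to 3.07), ABCD3 (103, others 55.6 to 72.9) and ABCF1 (5.63, others 11.4 to 14.6). LOC102399222 stood apart in control replicate 2 (4.51 FPKM, others at most 0.0292) and in treated replicate 1 (0.0300 FPKM from 3 reads, others 0).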

How the results depend on the processing

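The count of 0 members with a nominal limma p-value below 0.05 held under the alternatives tried but 2. With the squamous epithelium score as a covariate it was 1 (ABCA3, log2 fold change -0.61), and with 1 animal left out it ranged from 0 to 1, being 1 without treated replicate 6 (ABCC10, 0.52). Under the other alternatives it was 0, as was the count after adjustment (0 to 0 with 1 animal left out). Genes with a nominal p-value below 0.05 numbered 562 of the 22972 genes above 0 and 301 of the 16450 with at least 0.1 FPKM in 6 animals. Of the 12639 genes of the main filter, they numbered 328 without treated replicate 6 and 316 without both animals numbered 6. With the epithelium covariate they numbered 319, against 156 in the main fit. A single call among 26 ABC genes is near the share of all genes in the 2 fits that gave it. With the replicate number as a block, genes with a nominal p-value below 0.05 numbered 320, and 0 were ABC genes. The numbers were not taken to pair the animals, which are different buffaloes. The correlation of deviations was over 0.1 in 4 of 6 same-numbered pairs (mean 0.212, against -0.0392 for other numbers). Of 6 controls, 3 correlated best with their own number. In the headers of the table, no control bears the same number as the treated animal with its label number. Whether same-numbered animals shared a processing step is not given by the labels and was not tested.

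Of 390 log2 fold changes of 17 named members under alternatives, 36 changed sign, 2 passed the threshold and 352 did neither. Other members with values given above, such as ABCC5, ABCD4, ABCB9, ABCA5, ABCG4 and ABCA7, were not included. The 3 ABCC4-like loci had no p-value. For them, the last count means the same sign and a shift smaller than the within-group SD. Signs changed with the epithelium covariate in ABCC3 (-0.12), ABCD3 (0.0189), ABCF3 (-0.0113) and ABCA1 (0.14), without both animals numbered 6 in ABCF2 (-0.0414), ABCB10 (0.0473) and ABCF1 (0.0777), with the smooth muscle covariate in ABCF2 (-0.00899) and ABCA1 (0.0173), and with a pseudocount of 1 in ABCF1 (0.00158). With 1 animal left out, values ranged from -0.12 to 0.27 in ABCC3, -0.17 to 0.0339 in ABCD3, -0.0193 to 0.11 in ABCF2, -0.0512 to 0.0317 in ABCB10, -0.0438 to 0.23 in ABCF3, -0.12 to 0.20 in ABCF1, -0.35 to 0.19 in ABCA1, -0.56 to 0.02 in ABCA3 (-0.0892 without both animals numbered 6), -0.99 to -0.0621 in ABCA12, -1.09 to -0.21 in ABCC9, 0.17 to 0.80 in ABCG1, -1.31 to -0.89 in LOC112578513, -0.95 to -0.59 in LOC102413340 and -2.02 to -0.25 in LOC102399222. Correlations changed sign for ABCC9 with smooth muscle (-0.192) and pericytes (0.00646) without the 2 farthest animals, and within the treated group for ABCA12 with squamous epithelium (0.213) and ABCG1 with macrophages (-0.0962). Without both animals numbered 6 they changed sign for ABCC9 with pericytes (0.198), ABCA12 with squamous epithelium (0.363) and ABCG1 with macrophages (-0.438), and ABCC9 with smooth muscle rose to 0.719. The cause was not tested. Precision is limited by depth in the 15 members under the filter.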
